A study of Mus musculus with 61 samples.

Results

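The comparison described here set STAT5B Y665F, in which a tyrosine of the SH2 domain is replaced by phenylalanine, against unmutated STAT5B in CD4+ T cells that lack their own Stat5a and Stat5b. Its members are 6 of the 61 RNA-seq libraries of the study, 3 replicates titled as null cells with Stat5b Y665F and 3 titled as null cells with Stat5b. The cells came from C57BL/6 mice aged 2 months with floxed Stat5a/b, in which a Cd4-Cre transgene deleted the locus during thymic development, when cells carry CD4 and CD8 together, and so in both later lineages. Naive CD4+ T cells with low CD44 and no CD25 were sorted from pooled lymph nodes and spleens and activated through the T cell receptor and CD28. They were then transduced with a retrovirus that carries the Stat5b-202 isoform, kept with IL-2 for 48 h and sorted again as live CD4+ GFP+ cells. All 6 libraries share this deletion, activation and cytokine, so that this amino acid is the only difference the titles give. A further 9 null libraries (empty vector, Y665H and N642H, 3 each) share the fit, and WT CD4+ T cells with the same vectors were read beside them. The genotype label names floxed Stat5a/b in the libraries titled WT as well. Titles and the study's methods were therefore used to tell null from WT cells. Splenic T cells of WT mice and of mice with Y665F in their own Stat5b were also compared (8 libraries, IL-2 and IL-7). The titles do not say whether these mutant mice were heterozygous or homozygous.

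STAT5B is a transcription factor that waits in the cytoplasm until a cytokine receptor, in T cells above all that of IL-2, recruits JAK kinases that phosphorylate it on a tyrosine near its end. The SH2 domain of one molecule then holds the phosphorylated tyrosine of another, and the pair enters the nucleus and binds DNA at sites with the letters TTCNNNGAA. Known targets in T cells are the feedback inhibitors Cish, Socs1 and Socs2, the receptor chain Il2ra, the kinase Pim1 and the survival gene Bcl2.

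The codon that differs between the 2 constructs is shown within the native mouse gene, at chr11:100787291-100787293 (GRCm38, minus strand, exon 16 of 19 of Stat5b-202, coding length 2358 bases). Capitals mark the codon of the tyrosine Y665 between 8 codons on either side.
Stat5b codon of Y665: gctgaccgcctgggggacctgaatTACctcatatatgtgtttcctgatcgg
The deposited counts are per gene, and whether a read carried the mutated codon was not analysed here.

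Stat5b was well above the empty vector level with both constructs. It was counted at 369, 348 and 253 CPM (counts scaled to the library's reads on genes, after TMM normalization) in STAT5B replicates 1 to 3 and at 223, 339 and 287 CPM in those of Y665F. The groups overlapped, with means of 323 ± 61.8 and 283 ± 58.3 CPM (SD, n = 3 each). The log2 ratio of Y665F to STAT5B was -0.73 in replicate 1, -0.04 in replicate 2 and 0.18 in replicate 3, and the log2 fold change was -0.22 ± 0.23 with the block (SE, edgeR adjusted p = 0.876), which does not show that the levels are equal. With the empty vector, Stat5b stood at 2.83 to 9.82 CPM in the null cells and at 185 to 203 CPM in the WT cells. Reads also remained on Stat5a, at 2.02, 2.46 and 5.55 CPM with STAT5B and at 1.99, 4.03 and 8.49 CPM with Y665F. The source of these reads was not tested. Reads on genes ranged from 24363231 to 45211427 in the 6 libraries, replicate 3 of each construct being the shallowest. All 12 T cell identity genes were high, from 45.9 CPM for Themis in one STAT5B library to 1100 CPM for Cd4. Most genes of other cells were low, with Lyz2, Ms4a1, Pax5 and S100a8 under 0.2 CPM in each of the 6 libraries. Cd8a was at most 0.241 CPM, while Cd8b1 reached 16.1, Eomes 3.88 and Itgam 1.84 CPM. The summed B cell level was 3.89 to 4.42 CPM with STAT5B and 4.52 to 5.15 CPM with Y665F. Of the B cell genes, Ebf1 stood at 1.12 to 1.96 CPM with STAT5B and at 2.44 to 3.36 CPM with Y665F. Cd79a went the other way, at 1.54 to 2.21 and 0.861 to 1.87 CPM, and neither passed the edgeR adjusted p of 0.05.

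Nppc, Rai14, Lta, Csf2, Ccl3, Socs2 and Nrp2 were among the genes called higher with Y665F, and few genes passed as lower. In the fit without a block, edgeR called 2 of 20113 genes (0.00994%) at an adjusted p under 0.05 and a change beyond 2-fold, and both were higher with Y665F. Another 2 genes, Slco3a1, an organic anion transporter, and Gm13546, passed the adjusted p at a smaller log2 fold change (0.85 and 0.94). At an unadjusted p under 0.05 there were 543 higher genes (2.7%) and 457 lower ones (2.27%).

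Libraries with the same replicate number deviated together in all 30 same-numbered pairs of null libraries, and with this number as a block edgeR called 38 genes higher (0.189%) and 1 lower (0.00497%). At an adjusted p under 0.05 and any fold, 103 genes passed (0.512%), 81 higher and 22 lower. The 2 genes called without the block are among the 38, and 37 of the 38 had an unadjusted p under 0.05 without it. All 3 Y665F libraries lay above all 3 STAT5B libraries for 29 of the 38, and the share over the 11421 genes at 1 CPM or more on average was 7.37%. Since the 38 were chosen for being higher in these libraries, nothing is read from that count.

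**Figure D1:**
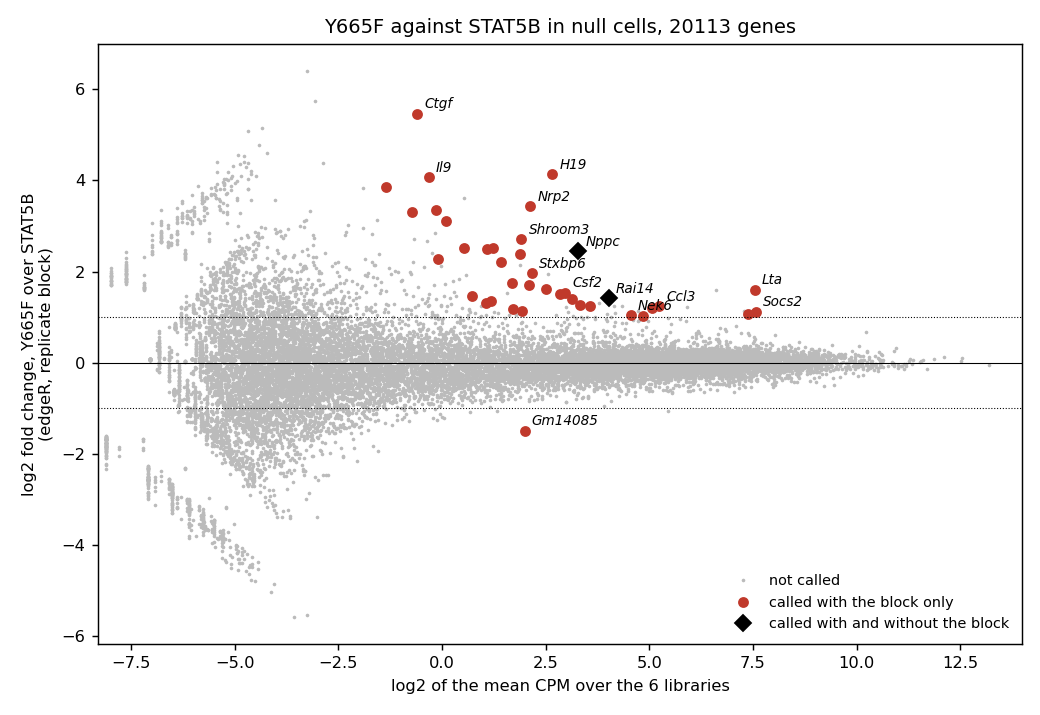
The log2 fold change of Y665F over STAT5B in null cells (replicate block) is plotted against the log2 of the mean CPM over the 6 libraries for 20113 genes. Red points are called with the block only, black diamonds (Nppc and Rai14) with and without it, dotted lines mark 2-fold, and a single called gene, Gm14085, lies below 0.

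Nppc, the precursor of C-type natriuretic peptide, gave the lowest adjusted p without the block. It was counted at 2.95, 2.52 and 3.72 CPM with STAT5B and at 16.4, 17.4 and 15.3 CPM with Y665F. The groups were far apart, and each was tight within itself. The log2 fold change was 2.43 ± 0.28 (SE, edgeR adjusted p = 0.00213) and 2.44 ± 0.23 with the block (adjusted p = 3.3e-05). With the empty vector Nppc stood at 0.363 to 1.54 CPM. The gene lies at chr1:86666291-86670571 on the minus strand (GRCm38).

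Rai14 encodes a protein that binds actin. It stood at 9.93, 7.33 and 9.59 CPM with STAT5B and at 26, 24.3 and 20.5 CPM with Y665F, again without overlap. Its log2 fold change was 1.40 ± 0.19 (edgeR adjusted p = 0.00716) and 1.41 ± 0.17 with the block (adjusted p = 0.000268). It lies at chr15:10568969-10714624 on the minus strand and overlaps Gm10389 on the other strand, and whether counting used the strand is not given in the sources used here.

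Among secreted signals, Lta, which encodes lymphotoxin alpha of the TNF superfamily, was the most abundant gene called. It was counted at 113, 98.7 and 59.7 CPM with STAT5B and at 372, 341 and 133 CPM with Y665F. The lowest Y665F library, replicate 3, was only a little above the highest STAT5B library, but each Y665F library was over 2-fold above the STAT5B library of its own number. The log2 fold change was 1.60 ± 0.25 with the block (edgeR adjusted p = 0.00314) and 1.64 ± 0.32 without it (adjusted p = 0.101).

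The myeloid growth factor Csf2 (GM-CSF) was counted at 4.53, 2.83 and 4.94 CPM with STAT5B and at 13.2, 10.9 and 10.5 CPM with Y665F. The groups did not overlap, and the log2 fold change with the block was 1.53 ± 0.26 (edgeR adjusted p = 0.00547). The chemokine Ccl3, which attracts monocytes and T cells, was counted at 17.8, 20.6 and 30.3 CPM with STAT5B and at 52, 50.6 and 54.4 CPM with Y665F. It too was higher in each Y665F library, with a log2 fold change of 1.24 ± 0.24 with the block (edgeR adjusted p = 0.0175).

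Il9, a growth factor for T cells and mast cells, was close to absent with STAT5B at 0.136, 0.0439 and 0.0816 CPM. With Y665F it was counted at 1.41, 2.61 and 0.533 CPM, and no read fell on it in the 3 null libraries with the empty vector. Its log2 fold change was 4.07 ± 0.59 with the block (edgeR adjusted p = 0.00257). The vascular peptide precursor Adm (adrenomedullin) stood at 0.263 to 0.49 CPM with STAT5B and at 1.42 to 1.6 CPM with Y665F. Ctgf, a matrix-associated growth factor, had 3 reads in all with STAT5B and 141 with Y665F, 4 of them in replicate 3, a ratio of 50.5 with a 95% exact interval from counting error alone of 16.9 to 248. Thbs1, a secreted glycoprotein that binds matrix and platelets, was at 3.96 to 9.11 CPM with STAT5B and at 11.5 to 24.6 CPM with Y665F.

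The feedback inhibitor Socs2, a classical STAT5 target, was counted at 139, 131 and 86.6 CPM with STAT5B and at 268, 338 and 181 CPM with Y665F. The groups did not overlap. The log2 fold change was 1.12 ± 0.20 with the block (edgeR adjusted p = 0.0108) and 1.14 ± 0.28 without it (adjusted p = 0.319), and the call with the block is lost without STAT5B replicate 3, without Y665F replicate 1 and without Y665F replicate 2, the edgeR adjusted p being at most 0.117. Socs2 was the only one of 13 JAK-STAT feedback genes called, beside 0.189% of all genes called higher with the block. The list's median log2 fold change was 0.07 against -0.01 over all genes at 1 CPM or more. Cish, another of these inhibitors, was counted at 234, 222 and 163 CPM with STAT5B and at 349, 372 and 224 CPM with Y665F, which overlap, and was not called (log2 fold change 0.60 ± 0.24 with the block, edgeR adjusted p = 0.39).

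**Figure D2:**
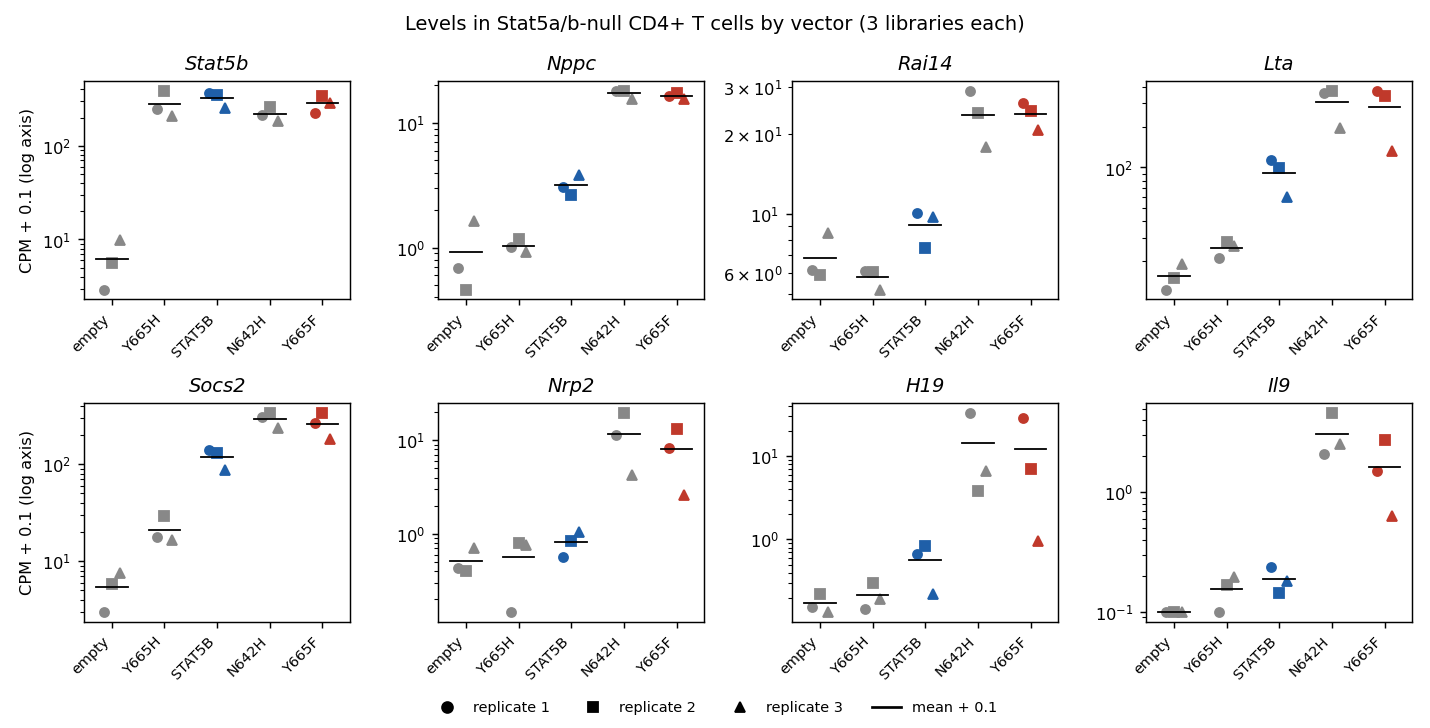
CPM + 0.1 (log axis) of 8 genes is shown in the 15 null libraries by vector, with symbols for replicates 1 to 3 and a line at the mean. Stat5b lies in 1 band with the 4 constructs, whereas the 3 Y665F points (red) lie above the 3 STAT5B points (blue) for the other 7 genes. The N642H libraries lie near those of Y665F.

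Several genes called encode receptors or surface proteins. Nrp2 (neuropilin 2), a receptor for semaphorins and VEGF, was counted at 0.464, 0.746 and 0.939 CPM with STAT5B and at 8.22, 13.2 and 2.5 CPM with Y665F. Its lowest Y665F library was well above each STAT5B library, and the log2 fold change with the block was 3.44 ± 0.52 (edgeR adjusted p = 0.00251). Plaur, the urokinase receptor, was counted at 0.546, 0.834 and 0.49 CPM with STAT5B and at 3.76, 5.67 and 1.48 CPM with Y665F. These groups did not overlap (log2 fold change 2.50 ± 0.36 with the block, edgeR adjusted p = 0.00232).

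The peptide receptors Oxtr (oxytocin) and Npsr1 (neuropeptide S) were at most 0.263 CPM in any STAT5B library and reached 1.71 and 2.39 CPM with Y665F. For Oxtr, Y665F replicate 3 at 0.123 CPM fell within the range of STAT5B. Chl1, a neural cell adhesion molecule, was counted at 8.71, 4.92 and 4 CPM with STAT5B and at 15.5, 19.7 and 7.42 CPM with Y665F, and Pigr, the carrier of polymeric immunoglobulins, at 1.59 to 2.2 and 2.54 to 6.33 CPM. Kcnj8, a potassium channel subunit, had groups that overlapped, at 24.5, 28.3 and 5.1 CPM with STAT5B and 47.8, 53.2 and 13.2 CPM with Y665F. Its call rests on the block (log2 fold change 1.03 ± 0.15, edgeR adjusted p = 0.00232), as its unadjusted p without the block was 0.086.

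The next genes called are set side by side for their known roles, after their values were seen. Shroom3, an actin-binding protein that shapes epithelial cells, was counted at 1.04, 1.32 and 0.449 CPM with STAT5B and at 11.1, 6.59 and 2.17 CPM with Y665F. Its log2 fold change was 2.71 ± 0.36 with the block (edgeR adjusted p = 0.00143). Stxbp6, which binds the SNARE proteins of vesicle fusion, was counted at 2.37, 1.6 and 1.43 CPM with STAT5B and at 10.6, 7.59 and 3.53 CPM with Y665F. Neither gene had overlapping groups, and the log2 fold change of Stxbp6 was 1.96 ± 0.22 with the block (edgeR adjusted p = 0.000165). Enah, which promotes actin polymerisation, stood at 0.939 to 1.8 CPM with STAT5B and at 3.16 to 6.2 CPM with Y665F, and Gap43, a growth cone protein, at 0.0819 to 0.373 and 1.15 to 2.32 CPM. Myh11, the heavy chain of smooth muscle myosin, stood at 0.531 to 1.87 CPM with STAT5B and at 1.56 to 8.86 CPM with Y665F, with Y665F replicate 3 inside the range of STAT5B. Of the 14 listed proteins that bind actin or microtubules, Rai14 was the one called (beside 0.189% of all genes). Shroom3, Enah and Myh11 were not on that list. Coro2a passed the adjusted p at a smaller change (0.74 ± 0.16 with the block, edgeR adjusted p = 0.0393). That list of 14 was written with earlier results of these data known, so its values describe it only. Without the block 9 of the 11 listed at 1 CPM or more were above 0, beside 48.4% of all genes at that level, with a median of 0.45. At an unadjusted p under 0.05 (edgeR, no block), 5 of the 14 were higher and 1 lower, beside 2.7% and 2.27% of all genes.

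Signalling enzymes and regulators were called as well. Pkib, an inhibitor of protein kinase A, was counted at 0.682, 0.834 and 0.49 CPM with STAT5B and at 3.39, 6.66 and 2.05 CPM with Y665F. It did not overlap and had a log2 fold change of 2.53 ± 0.28 with the block (edgeR adjusted p = 0.000165). The calmodulin-dependent phosphodiesterase Pde1a was counted at 2.87, 4.13 and 1.39 CPM with STAT5B and at 8.59, 12.9 and 4.43 CPM with Y665F. Car2, a carbonic anhydrase, was counted at 4.58, 3.27 and 6.16 CPM with STAT5B and at 7.7, 10.6 and 20.4 CPM with Y665F, its highest value being in replicate 3, where most of the other genes had their lowest.

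Cdkn1a, the cell cycle inhibitor p21, was counted at 76.2, 76.6 and 170 CPM with STAT5B and at 134, 222 and 312 CPM with Y665F. The groups overlapped, since the level in replicate 3 was high with both constructs, and the log2 fold change with the block was 1.06 ± 0.21 (edgeR adjusted p = 0.0201). The mitotic kinase Nek6 was counted at 16, 16.5 and 13.4 CPM with STAT5B and at 32, 38.1 and 24.9 CPM with Y665F. It overlaps Psmb7 on the other strand. None of the 20 cell cycle genes listed was called, and their median log2 fold change was -0.01.

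The imprinted long noncoding RNA H19 varied widely within a group. It was counted at 0.573, 0.724 and 0.122 CPM with STAT5B and at 28.9, 6.9 and 0.861 CPM with Y665F, so that the groups did not overlap although the Y665F libraries spanned over 30-fold. Its log2 fold change was 4.14 ± 0.62 with the block (edgeR adjusted p = 0.00251). C1s1 and C1s2 encode near-identical copies of a complement protease, and how reads were shared between them is uncertain. C1s1 stood at 1.83 to 2.11 CPM with STAT5B and at 3.45 to 8.77 CPM with Y665F, and C1s2 at 0.776 to 1.01 and 2.16 to 2.87 CPM.

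The remaining genes called higher were Tmem125, Mab21l3, Cdhr3, a cadherin-related protein, Abi3bp, a matrix protein, Stbd1, a glycogen-binding protein, 1810011H11Rik, Fsd1l and Tle1, a transcriptional corepressor. Of these Fsd1l was the most abundant, at 28.9, 17.1 and 14.2 CPM with STAT5B and 54.1, 57.1 and 27.9 CPM with Y665F. Of the 38 genes, 15 were under 1 CPM with STAT5B and 7 were at 10 CPM or more. Ctgf, Il9, Tmem125, Npsr1, Oxtr, Adm, Nek6 and Kcnj8, and Slco3a1 and Gm13546 above, were named after their values were seen.

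The one gene called lower was Gm14085, named Slc28a2b in RefSeq, a close copy of the neighbouring nucleoside transporter gene Slc28a2. It was counted at 6.22, 7.05 and 4.29 CPM with STAT5B and at 2.41, 2.54 and 1.39 CPM with Y665F. The groups did not overlap, and its log2 fold change was -1.50 ± 0.27 with the block (edgeR adjusted p = 0.00826). With the empty vector it stood at 5.14 to 28 CPM. Reads shared with its copy could move these values.

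The libraries of replicate 3 carried the smallest differences. The median log2 ratio of Y665F to STAT5B over the 38 genes was 1.77 in replicate 1, 1.97 in replicate 2 and 1.40 in replicate 3, and for 25 of the 38 the ratio was smallest in replicate 3. These medians describe the genes chosen in the same libraries. Without Y665F replicate 3, edgeR called 35 genes without the block and 96 with it. Leaving out STAT5B replicate 3 instead gave 2 calls without the block and 23 with it. Without Y665F replicate 2 it called 20 with the block, and without STAT5B replicate 2 it called 0 without the block (1082 at an unadjusted p under 0.05). The following 16 genes were called with the block under each setting tried and without each of the 6 libraries in turn: Csf2, Ctgf, Fsd1l, Gap43, H19, Il9, Lta, Mab21l3, Myh11, Nppc, Nrp2, Pkib, Plaur, Rai14, Shroom3 and Stxbp6. Each of the other 23, Ccl3, Cdkn1a, Nek6, Kcnj8, Thbs1, Socs2 and Gm14085 among them, lost its call without at least 1 library.

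Few members of the gene lists chosen for T cell biology were called. These lists were chosen with earlier results of these data known, so their shares and medians describe the listed genes only. Over all 11421 genes at 1 CPM or more, 48.4% had a log2 fold change above 0. Among 18 helper T cell cytokines, 2 were called higher with the block (Csf2 and Il9), beside 0.189% of all genes. Without the block 5 of the 18 were higher and 1 lower at an unadjusted p under 0.05, beside 2.7% and 2.27% of all genes. Of the 9 at 1 CPM or more 7 were above 0, with a median of 0.39. Of these cytokines Csf1, the macrophage growth factor, passed the adjusted p in the other direction. Csf1 was counted at 54.3, 56.2 and 61.5 CPM with STAT5B and at 31.8, 35.8 and 43.4 CPM with Y665F, without overlap (log2 fold change -0.64 ± 0.12 with the block, edgeR adjusted p = 0.0126). Il3, a growth factor for mast cells, was not called although its values were 2.26, 3.36 and 1.43 CPM with STAT5B and 14, 11.3 and 2.87 CPM with Y665F, which overlap in replicate 3 (adjusted p = 0.101 with the block). Among 12 TNF superfamily ligands Lta alone was called, beside 0.189% of all genes called higher with the block. Among 12 TNF receptor superfamily members Cd27 and Tnfrsf14 were lower at an adjusted p under 0.05 with the block (edgeR), beside 0.109% of all genes. Tnfrsf14 was counted at 25.4, 21.9 and 23.9 CPM with STAT5B and at 14.5, 16.6 and 15.7 CPM with Y665F (log2 fold change -0.61 ± 0.13 with the block, edgeR adjusted p = 0.0393).

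Of 21 interferon-stimulated genes, 0 were called, but Irf7, Gbp2 and Gbp4 passed the adjusted p with the block, each lower with Y665F, and none passed in the other direction (edgeR). Over all genes 22 of 20113 (0.109%) passed as lower. Gbp4, a guanylate-binding protein, was counted at 51.4, 73.5 and 104 CPM with STAT5B and at 29.9, 50.2 and 69.6 CPM with Y665F. Its groups overlapped, while within each replicate number Y665F was the lower one (log2 fold change -0.63 ± 0.10 with the block, edgeR adjusted p = 0.0043). Irf1, an interferon-induced transcription factor outside this list, named after its values were seen, averaged 117 CPM with STAT5B and 80.6 CPM with Y665F (log2 fold change -0.61 ± 0.11 with the block, edgeR adjusted p = 0.0122). The median over the 14 listed genes at 1 CPM or more was -0.11, and 4 of the 14 were above 0.

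No gene was called by edgeR, with or without the block, among the 16 of glycolysis, the 10 of amino acid transport, the 16 of the BCL2 family, the 10 of PIM kinases, Myc and D cyclins, or the 12 of CD4 T cell identity. At an unadjusted p under 0.05 without the block these lists held 0, 0, 3, 1 and 2 genes in that order. Over all genes 2.7% were higher and 2.27% lower at that p. The median log2 fold change was 0.07 for glycolysis, with 13 of 15 genes at 1 CPM or more above 0 (86.7%), and 0.19 for PIM kinases, Myc and D cyclins, with 8 of 9 (88.9%). It was 0.13 for amino acid transport (7 of 9) and -0.03 for the BCL2 family (6 of 14). For CD4 T cell identity 2 of 12 were above 0, with a median of -0.11. Among the 7 chemokine ligands at 1 CPM or more the median was 0.67, with 4 above 0 and Ccl3 called with the block (beside 0.189% of all genes). Of the 14 naive and quiescence genes 2 were above 0, with a median of -0.16. Among regulatory T cell genes Gpr83, an orphan receptor, missed the fold threshold narrowly (log2 fold change 1.00 ± 0.17 with the block, edgeR adjusted p = 0.00711), at 5.84 to 7.66 CPM with STAT5B and 9.11 to 18.4 CPM with Y665F.

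Il2ra, a known STAT5 target of high level, was among the genes not called. This gene, the alpha chain of the IL-2 receptor, was counted at 1117, 899 and 740 CPM with STAT5B and at 1433, 1833 and 1192 CPM with Y665F. The groups did not overlap, but the log2 fold change of 0.68 ± 0.18 with the block did not pass (edgeR adjusted p = 0.107). Irf8, a transcription factor of the interferon regulatory family, was counted at 85, 96.7 and 116 CPM with STAT5B and at 217, 191 and 235 CPM with Y665F. Its groups did not overlap either, with a log2 fold change of 1.14 ± 0.29 with the block (edgeR adjusted p = 0.0911). Slc3a2, the heavy chain of amino acid transporters, ranged from 124 to 126 CPM with STAT5B and from 132 to 146 CPM with Y665F (log2 fold change 0.13 ± 0.09 with the block, edgeR adjusted p = 0.747).

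**Figure D3:**
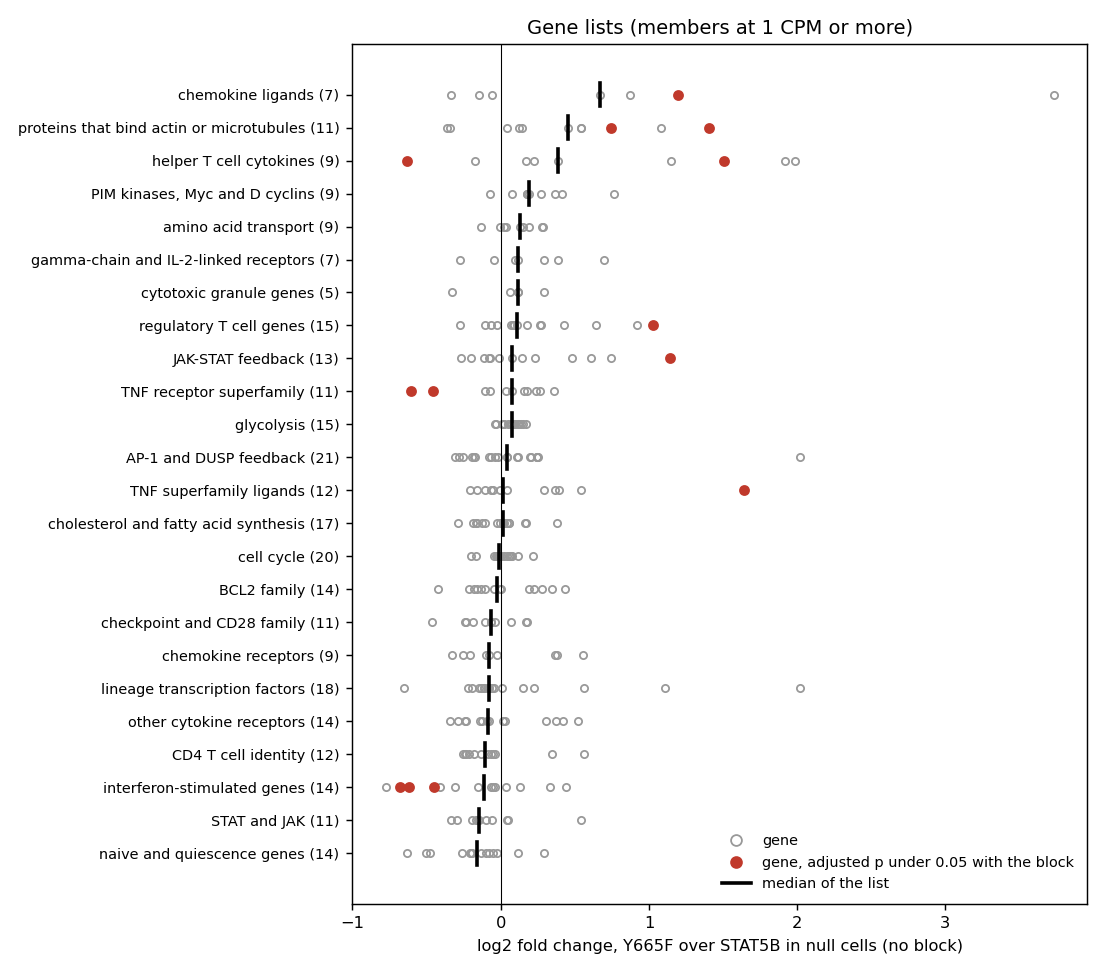
The log2 fold change of Y665F over STAT5B in null cells (fit without the block) is shown for each member at 1 CPM or more of the listed gene groups, with a bar at the median. Red points passed an adjusted p under 0.05 with the block. The medians lie between -0.16 (naive and quiescence genes) and 0.67 (chemokine ligands, 7 genes).

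Genes that differ between null and WT cells were then taken from the empty vector libraries, which are not part of the contrast. With the empty vector, edgeR called 468 genes lower (2.13%) and 561 higher (2.55%) in null than in WT cells. The lower ones include Stat5a and Stat5b themselves. Null and WT cells came from different mice, so loss of STAT5 and other differences between these mice cannot be told apart. Of the genes lower in null cells, 337 were at 1 CPM or more in the 6 libraries, and 79.2% of these had a log2 fold change of Y665F over STAT5B above 0, with a median of 0.29 against -0.01 over all genes. At an unadjusted p under 0.05 without the block, 109 of the 467 tested were higher with Y665F and 5 lower, beside 2.7% and 2.27% of all genes. With the block 17 were called higher and 0 lower.

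The genes higher in null cells went the other way. Of 467 at 1 CPM or more, 29.1% were above 0, with a median of -0.17. At an unadjusted p under 0.05, 9 of the 561 were higher and 56 lower with Y665F, beside 2.7% and 2.27% of all genes. These medians became 0.44 and -0.36 without Y665F replicate 3 and were 0.20 and -0.04 without STAT5B replicate 3.

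**Figure D4:**
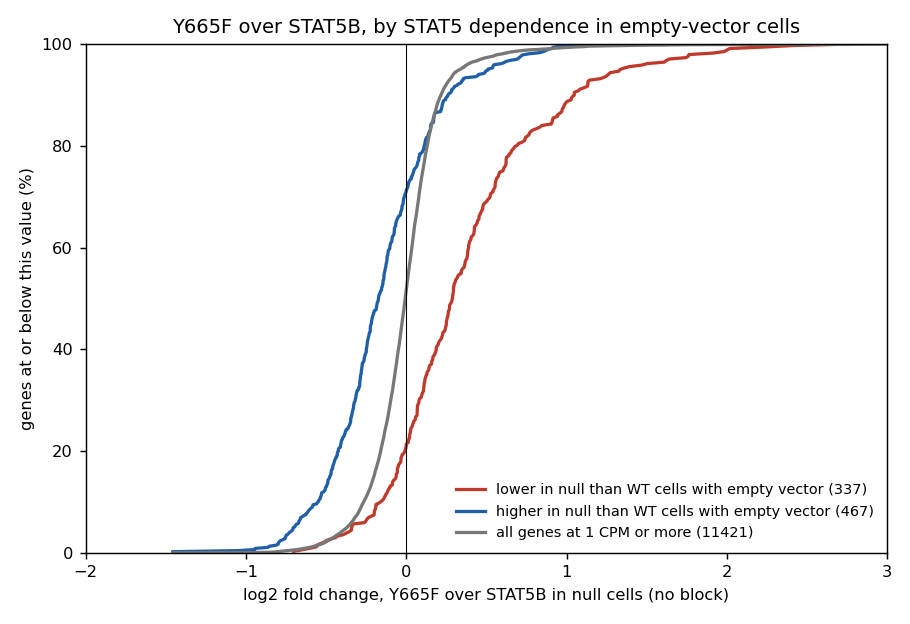
Cumulative share of genes (%) is plotted against the log2 fold change of Y665F over STAT5B in null cells. The 337 genes lower in null than in WT cells with the empty vector (red) lie to the right of all 11421 genes at 1 CPM or more (grey), and the 467 higher ones (blue) lie to the left of them over most of their range.

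Of the 38 genes called higher with Y665F, 17 were lower in null than in WT cells with the empty vector, 0 were higher, and 20 had an adjusted p of 0.05 or more in that comparison. Among the 17 were Socs2, with a log2 difference of null from WT cells of -5.75, Stxbp6 at -6.22, Cdhr3 at -5.93, Kcnj8 at -5.04 and Lta at -3.66. Nppc, Rai14, Il9, Nrp2, Plaur, Pkib and H19 were not among them.

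The other null libraries give context, but these comparisons share libraries with the one above, so their values stand side by side only. All of them were fitted without the block, whereas the 38 genes were chosen with it. In the fit without the block Y665F over STAT5B called 2 genes. STAT5B itself over the empty vector was called higher for 11 of the 38 genes (72 of 20113, 0.358%), and Y665F over the empty vector for 35 (279 genes, 1.39%). For N642H, another substitution in the SH2 domain, over STAT5B, 38 of the 38 were above 0 and 13 were called (14 genes in all, 0.0696%). Y665F against N642H called 0 of 20113 genes (181 at an unadjusted p under 0.05), and of the 38 Ctgf alone had an unadjusted p under 0.05. Nppc, for example, was at 17.8, 17.9 and 15.5 CPM with N642H, and at 0.821 to 1.07 CPM with Y665H, in which the same tyrosine is replaced by histidine.

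The same contrast in WT CD4+ T cells used 6 other libraries, in which the constructs were added to the cells' own Stat5a and Stat5b. There edgeR called 0 genes without the block (632 at an unadjusted p under 0.05, and 12 called by DESeq2) and 44 higher (0.215%) and 0 lower with it. Of the 38 genes chosen in null cells, 36 were higher with Y665F, beside 46.8% of all genes tested, with a median log2 fold change of 0.91 beside -0.02. At an unadjusted p under 0.05 without the block 20 of the 38 were higher (1.47% of all genes) and 0 lower. With the block 32 of the 38 were higher at an unadjusted p under 0.05 (4.72% of all genes) and 16 were called. In 17 of the 38 all 3 Y665F libraries were above all 3 STAT5B libraries, beside 2.91% of genes at 1 CPM or more.

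Plaur was counted in WT cells at 2.17, 2.69 and 0.739 CPM with STAT5B and at 13.5, 13.3 and 5.04 CPM with Y665F. Its log2 fold change was 2.55 ± 0.19 with the block (edgeR adjusted p = 1.05e-07), close to that in null cells. H19 was counted at 30.5, 23.8 and 6.56 CPM with STAT5B and at 112, 109 and 99.5 CPM with Y665F, so that its Y665F libraries were much closer to each other than in null cells. Nppc was counted at 1.48, 1.21 and 1.83 CPM with STAT5B and at 3.87, 5.02 and 6 CPM with Y665F (log2 fold change 1.73 ± 0.21 with the block, edgeR adjusted p = 0.000114). Lta was counted at 423, 483 and 182 CPM with STAT5B and at 927, 827 and 402 CPM with Y665F, again lowest in replicate 3 of each (log2 fold change 1.01 ± 0.11 with the block, edgeR adjusted p = 3.28e-05).

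Some of the genes called in null cells did not pass in WT cells. Socs2 stood at 381, 398 and 245 CPM with STAT5B and at 451, 530 and 358 CPM with Y665F, which overlap (log2 fold change 0.40 ± 0.10 with the block, edgeR adjusted p = 0.0959). Stbd1 and 1810011H11Rik were the 2 genes not higher, at -0.19 ± 0.27 and -0.01 ± 0.29. Csf1 was lower with Y665F in WT cells as well (-0.85 ± 0.16 with the block, edgeR adjusted p = 0.00993).

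Whether the difference between Y665F and STAT5B itself differs between null and WT cells was tested by an interaction contrast over all 30 CD4 libraries. edgeR called 0 of 21975 genes (257 at an unadjusted p under 0.05), and DESeq2 called 0. Over the 38 genes the median of null minus WT was 0.82 on the log2 scale, but they had been chosen for a high value in null cells, and 4 (Stbd1, Shroom3, Abi3bp and Car2) had an unadjusted p under 0.05. The estimate for Plaur was 0.00 ± 0.30 and that for Socs2 0.77 ± 0.39, both with an adjusted p near 1.

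**Figure D5:**
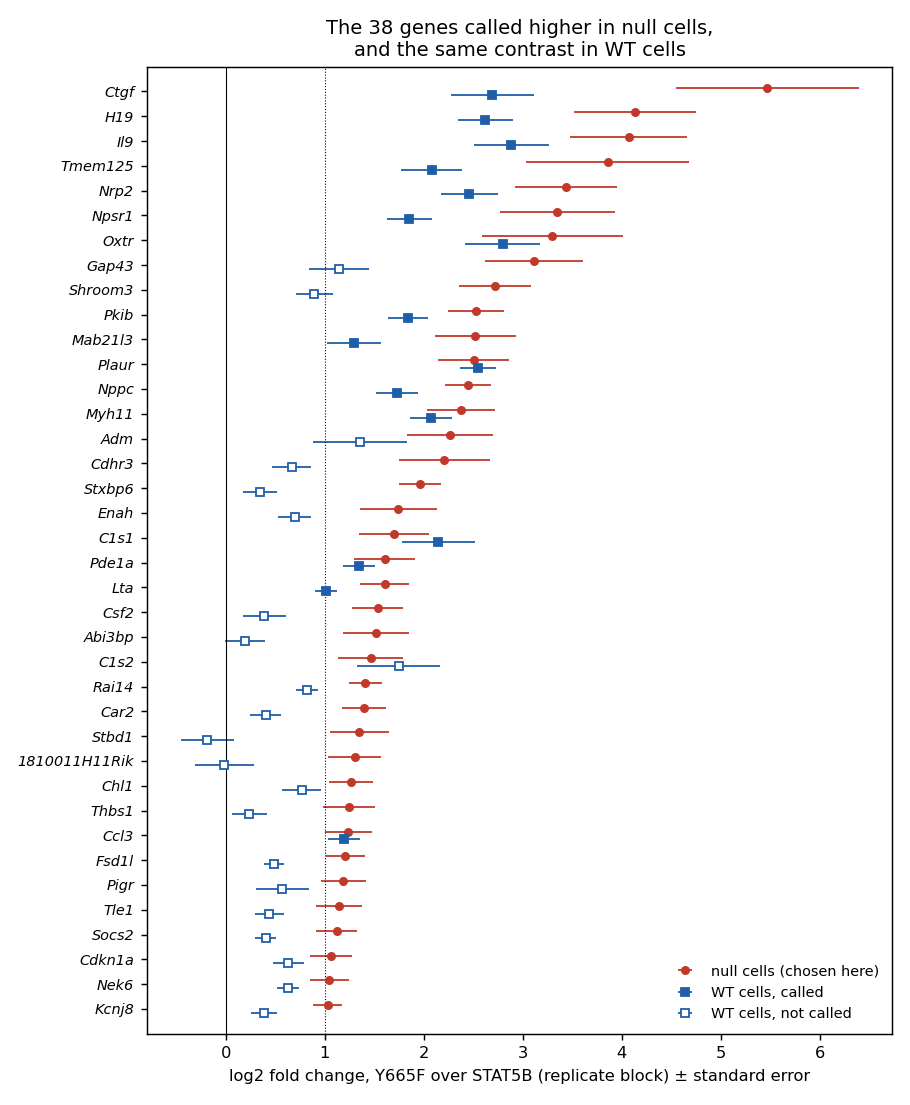
Log2 fold changes of Y665F over STAT5B (replicate block) ± SE are shown for the 38 genes in null cells (red circles), where they were chosen, and in WT cells (blue squares, filled where called). In WT cells 36 of the 38 lie above 0 and 16 are called.

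In splenic T cells of mice that carry Y665F in their own Stat5b, cultured for 24 h with IL-2 and IL-7, edgeR called 257 genes higher (1.15%) and 85 lower (0.381%) than in WT cells, with 4 libraries each. Of the 37 of the 38 genes tested there, 32 were higher, beside 53.4% of all genes, and 5 were called (Nrp2, Pkib, Enah, Car2 and Thbs1). Nrp2 ranged from 4.62 to 10.5 CPM in WT cells and from 14.2 to 22.7 CPM in Y665F cells. Pkib ranged from 2.03 to 3.66 CPM in WT cells and from 6.52 to 76.6 CPM in Y665F cells, and Car2, at 5.03 to 176 CPM in Y665F cells against 4.53 to 7.37 CPM, overlapped with WT and had its highest value in the same library as Pkib. Gm14085, the gene lower in null cells, was far more abundant here, at 486 to 717 CPM in WT cells and 88.4 to 266 CPM in Y665F cells, and was called lower (log2 fold change -1.79 ± 0.27, edgeR adjusted p = 0.00202). Nppc had too few reads to be tested there. These libraries hold total splenic T cells, and the paper gives as a caveat that the mutants altered the proportions of T cell subsets. How far such proportions moved these values was not tested.

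Promoters of the genes called were read from RefSeq (GRCm38.p6), 250 bases before to 50 bases after each start, and searched for TTCNNNGAA, a motif that is its own reverse complement. Of the 38 genes 29 had a promoter in the table, and 3 of these (Lta, Pkib and Pigr, 10.3%) held the letters, beside 8.9% of the 14835 tested genes with a promoter. Lta had 2 matches, 152 and 16 bases before its start, Pkib 1 match 94 bases before one of its starts, and Nppc none. The promoters of Lta and Pkib, the called genes with matches before the start, and of Nppc, the gene with the lowest adjusted p, are printed with the matches in capitals. A match describes the letters only, and binding was not measured in these cells.
Lta, chr17:35205302-35205601, minus strand: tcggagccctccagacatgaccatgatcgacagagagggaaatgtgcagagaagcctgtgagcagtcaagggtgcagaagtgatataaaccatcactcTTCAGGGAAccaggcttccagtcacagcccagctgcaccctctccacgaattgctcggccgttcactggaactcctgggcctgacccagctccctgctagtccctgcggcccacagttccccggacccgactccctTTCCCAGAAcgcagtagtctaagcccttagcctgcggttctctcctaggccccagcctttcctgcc
Pkib, chr10:57631731-57632030, plus strand: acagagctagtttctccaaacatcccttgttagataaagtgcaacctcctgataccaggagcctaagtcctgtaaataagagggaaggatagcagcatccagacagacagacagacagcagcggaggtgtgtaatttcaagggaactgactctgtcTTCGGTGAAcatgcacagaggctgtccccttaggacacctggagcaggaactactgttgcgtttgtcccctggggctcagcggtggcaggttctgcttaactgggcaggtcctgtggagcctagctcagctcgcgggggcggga
Nppc, chr1:86670524-86670823, minus strand: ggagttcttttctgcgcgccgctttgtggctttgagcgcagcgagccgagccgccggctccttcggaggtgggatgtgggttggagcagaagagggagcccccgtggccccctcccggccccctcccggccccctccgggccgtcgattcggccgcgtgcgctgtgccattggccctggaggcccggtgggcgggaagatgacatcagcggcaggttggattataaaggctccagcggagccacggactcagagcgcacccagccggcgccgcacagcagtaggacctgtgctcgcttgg

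In sorted bulk cells a higher level in every cell and a larger share of cells that express a gene cannot be told apart. The labels do not say whether the 3 replicates came from separate mice or cultures. The p-values for null cells rest on the spread within vectors over all 15 null libraries. With the block they rest on what remains of it after differences between replicate numbers are removed. Whether this is a spread between mice is not known.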

How the data were processed

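The authors trimmed reads with Trimmomatic 0.36, aligned them with STAR to mm10, counted them per gene with HTSeq 0.9.1 and deposited raw counts (tools from the submitters' processing notes). The gene annotation and strand setting of the counting are not given in the sources used here. Libraries were made from total RNA after removal of ribosomal RNA, and the extraction text names mammary tissue although these are T cells. Each file held 24421 genes and 5 last lines for reads assigned to none. Such reads were 29.5% to 32.3% of each of the 6 libraries and were left out.

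The tests were run with edgeR 4.0.16 (R 4.3.3, limma 3.58.1). The fit (TMM, glmQLFit, glmQLFTest) took the 15 null CD4 libraries of 5 vectors and the genes with at least 10 reads in total. A call needed a Benjamini-Hochberg adjusted p under 0.05 together with a change of more than 1 on the log2 scale. Each standard error was obtained from the fold change and the F statistic. WT cells, both backgrounds and splenic T cells were fitted alike.

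Titles number the replicates alike in each vector. Deviations from the vector mean had a Pearson correlation above 0.1 across genes in 30 of 30 same-numbered pairs of null libraries (0.246 to 0.758, median 0.465) and in 30 of 30 of WT libraries (0.117 to 0.859), with medians of -0.25 and -0.44 for other numbers. Deviations cancel within a vector, so agreement between equal numbers by itself makes the medians for other numbers negative. Those negative medians are no separate ground for pairing. Only the same-numbered correlations led to fits that took the replicate number as a block, next to fits without a block. The methods of the study describe neither a batch nor a shared animal for this number.

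The genes named are those the study names for these cells, those called without the block, called genes at 1 CPM or more with the block (up to 30 higher and 10 lower), and up to 4 members of each list with the smallest p. Members and lists were chosen with earlier results of these data known. The fits of Y665F against STAT5B in null cells were tried on simulated counts in which 200 genes had been altered. With the block, 79 genes altered 2-fold and 97 altered 4-fold were recovered, beside 16 false calls. Without the block these counts were 86, 99 and 11. Alternatives were RLE factors, DESeq2 1.42.0, filterByExpr, no filter, the 6 libraries alone, a RUVr factor, no fold minimum and leaving out each library. No 2 null libraries had identical counts. Coordinates are from GENCODE on GRCm38, the same assembly as mm10. At the lowest depth 1 CPM is about 24 reads. Splenocyte libraries, protein sequences and binding data were not used here.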

Additional observations from a re-analysis of the deposited data

How the results depend on the processing

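The count of calls in null cells moved with the block, the filter, the fold minimum, the test, the libraries fitted and single libraries. Without the block edgeR called 2 genes, and the count was 39 with the block, 27 by DESeq2, 16 without a low-count filter, 4 with no fold minimum, and 0 (without STAT5B replicate 2) to 35 (without Y665F replicate 3) when a library was left out. With the block it called 39 genes, 106 with no filter, 92 with the 6 libraries alone, 103 with no fold minimum, 2 without the replicate block and 20 (without Y665F replicate 2) to 96 (without Y665F replicate 3) when a library was left out. Of the 39, 39 were called with the 6 libraries alone and with no filter, 36 with DESeq2 (55 calls), which gave no adjusted p for Tmem125, and 29 with filterByExpr (30 calls). Filters and the 6-library fit differ in the genes and libraries used, and the cause of the other changes was not tested. All 39 kept their sign under each of these settings with the block.

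In WT cells the count of 0 became 44 with the replicate block and 12 with DESeq2, and stayed 0 without each library. The interaction count of 0 became 1 with a replicate block per background and stayed 0 with DESeq2 and without each library. The median of the genes lower in null cells ranged from 0.20 to 0.44 and that of the higher ones from -0.36 to -0.041 without a library. The log2 fold change of Stat5b with the block was -0.22, and from -0.39 (without STAT5B replicate 3) to 0.052 (without STAT5B replicate 1). That of Stat5a was 0.54 without the block, and from -0.11 (without Y665F replicate 3) to 1.09 (without STAT5B replicate 3). Depth limits the genes under 1 CPM, which are counted in few reads in replicate 3.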
